A study of Mus musculus with 10 samples.

Results

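Collagen genes were examined in the kidney cortex of mice with aristolochic acid nephropathy (AAN). The family was taken by name, as every gene of the deposited values whose mouse symbol is made of Col, a number, the letter a and a number. This gave 43 of the 21792 genes, and the rule uses no measured value. Wild-type (WT) male C57BL/6 mice, aged 8 weeks according to the methods of the study, received either aristolochic acid, injected intraperitoneally 1 time at 5 mg/kg (6 AAN mice), or the same volume of PBS (4 sham mice). Aristolochic acid is a plant toxin that injures the proximal tubule, and the model is used to study fibrosis that follows tubular injury. Tissue was taken at day 28, each mouse had its own RNA-seq library and no mice were pooled, so the spread between mice includes biological and technical variation. Nothing in the labels marks a batch, an intervention or an altered allele in either group. The comparison asks which collagens differ between AAN and sham cortex.

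Collagens are extracellular proteins whose chains wind into helical trimers, and their classes build different structures. Fibrillar collagens (types I, II, III, V, XI, XXIV and XXVII) form the banded fibres of scar tissue, which fibroblasts and pericytes lay down between the tubules of a fibrotic kidney. Type IV collagen is the network of basement membranes, with the *Col4a1* and *Col4a2* chains in nearly all of them and the *Col4a3*, *Col4a4* and *Col4a5* chains in the glomerular basement membrane, where they come from podocytes. Type VI collagen makes beaded microfilaments, the FACIT collagens sit on the surface of fibrils, type VIII makes a short chain network, the multiplexins (types XV and XVIII) lie at basement membranes, and a few collagens are transmembrane proteins of epithelial and other cells.

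By these structural classes the 43 genes comprise 11 fibrillar, 6 type IV, 6 type VI, 8 FACIT, 3 short chain network, 2 multiplexin and 4 transmembrane genes, with 3 others (*Col7a1* of the anchoring fibrils, *Col26a1* and *Col28a1*). All levels are FPKM, the fragments of a gene scaled to its length and to the fragments of the library, which allows levels to be compared between genes. Changes are log2 fold changes, AAN minus sham, of log2(FPKM + 0.1), and understate the change of genes near 0. A gene was called when its adjusted p did not exceed 0.05 (limma, Benjamini-Hochberg over all genes tested) and its level was changed 2-fold or more, in either direction.

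The libraries held 15.7 to 17.5 M fragments in sham mice and 13.3 to 16.5 M in AAN mice, as recovered from the steps between low FPKM values. In sham mouse B634 the 20 most abundant genes took 75.6% of the FPKM total, against 31.8% to 67.3% in the other mice. Without it 23 collagens were called higher and 1 lower, as with all mice. The median log2 fold change of all 17129 genes tested was 0.748, and 82.3% of them had a value above 0. Rescaling the mice by the median of ratios moved this median to 0.065, and quantile normalization moved it to -0.098. Changes of the collagens are therefore given also as the distance from the median of 0.748. Sham cortex had proximal tubule markers at 2191 to 4095 summed FPKM over 6 genes and podocyte markers at 43.1 to 83.7 over 5 genes, and 4 markers of adipose tissue and skeletal muscle summed to at most 0.109, with *Ckm* and *Acta1* listed at 0 in all 4 sham mice (up to 0.928 in AAN mice).

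Of the 43 collagen genes, 33 passed the filter of a mean of 0.1 FPKM over the 10 mice, and 23 of these were called higher in AAN against 35.8% of all genes tested. Only *Col6a6* was called lower, against 3.43% of all genes tested. Among the 33 genes, 5 passed the filter through the AAN mice alone, and 4 of these are among the 23. The 4 are *Col8a2*, *Col9a3*, *Col11a2* and *Col17a1*, and the other is *Col24a1*. Their separation and p are partly set by the filter and are given as values only. Of the 28 genes with a sham mean of at least 0.1 FPKM, 19 were called higher. The median log2 fold change of the 33 was 1.71, and 27 lay above the median of all genes. After rescaling by the median of ratios 17 collagens were called higher and 4 lower, against 19% and 10.5% of all genes. In 25 of the 33 genes every AAN mouse lay above every sham mouse, as did 40.3% of all genes tested. The 25 include *Col8a2*, *Col9a3*, *Col17a1* and *Col24a1*, whose separation is partly set by the filter as said above. In 1 every AAN mouse lay below, as did 3.25% of all genes. That gene is *Col6a6*, which passed the filter through the sham mice alone.

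**Figure D1:**
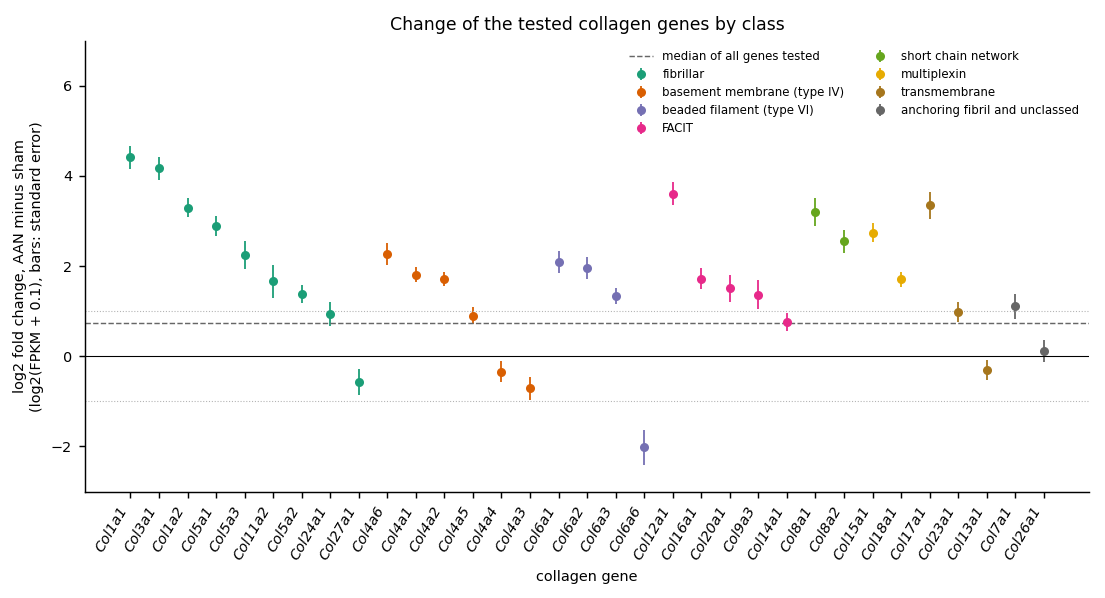
Log2 fold change (AAN minus sham, on the log2(FPKM + 0.1) scale) of the 33 tested collagen genes, ordered by class and by size within a class, with bars for the standard error. The dashed line is the median of all genes tested (0.748) and the dotted lines mark changes of 1 and -1. The fibrillar genes run from 4.41 for *Col1a1* to -0.57 for *Col27a1*, and *Col6a6* lies lowest at -2.02.

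Summed over the family, collagen FPKM was 148.6 ± 16.9 (SD, n = 4) in sham and 501.0 ± 81.2 (SD, n = 6) in AAN mice, and every AAN mouse (385.1 to 631.7) lay above every sham mouse (127.1 to 167.5). These are sums of RNA from whole cortex, in which more cells of a type and more RNA per cell cannot be told apart. Markers of fibroblasts and pericytes moved in the same direction. Their summed FPKM over 8 genes was 12.3 to 15.2 in sham and 53.5 to 95.2 in AAN mice, and 7 of 7 tested were called higher. Of the 7, *Lum*, *Postn* and *Gli1* (sham means 0.0518, 0.0226 and 0.0452 FPKM) passed the filter through the AAN mice alone. Their calls are therefore partly set by the filter. Macrophage markers summed to 37.5 to 60.3 in sham and 609.8 to 2127 in AAN mice, with 6 of 6 called higher, and injured tubule markers to 110.8 to 197.6 and 1113 to 3248, with 5 of 5. The injured tubule marker *Havcr1* (sham mean 0.0337 FPKM) also passed the filter through the AAN mice alone. Proximal tubule markers were at 658.4 to 2055 in AAN mice, with 5 of 6 called lower. Endothelial markers were at 63.7 to 101.6 in sham and 116.1 to 135.6 in AAN mice, with none of 6 called higher by limma (3 at an unadjusted p under 0.05). Thick limb and collecting duct markers overlapped (623.5 to 1845 in sham and 290.0 to 2363 in AAN mice). Smooth muscle markers did not overlap, at 37.9 to 63.9 in sham and 77.9 to 269.9 in AAN mice, with 3 of 5 called higher. Over all genes tested 35.8% were called higher and 3.43% lower. The part of any of these cell types in the collagen values was not tested.

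The balance of classes also differed. Type IV made up 67.3% ± 3.87 (SD, n = 4) of collagen FPKM in sham and 46.8% ± 3.85 (SD, n = 6) in AAN mice, and the ranges of 62.4% to 71.7% and 42.8% to 53.7% did not overlap. Fibrillar collagens made up 11.6% ± 2.09 in sham (9.07% to 14.0%) and 30.3% ± 4.72 in AAN mice (22.1% to 34.9%). Fibrillar transcripts were therefore a larger share of the total in every AAN mouse, while type IV remained the largest class in each. The ratio of summed fibrillar to summed type IV FPKM was 0.174 ± 0.0413 in sham and 0.658 ± 0.145 in AAN mice, and does not depend on the scaling between mice. Short chain network collagens were 0.415% ± 0.0875 and 1.42% ± 0.426 of the total. The shares of type VI, FACIT, multiplexin, transmembrane and the other collagens overlapped between the groups. These shares are given as values without a test.

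**Figure D2:**
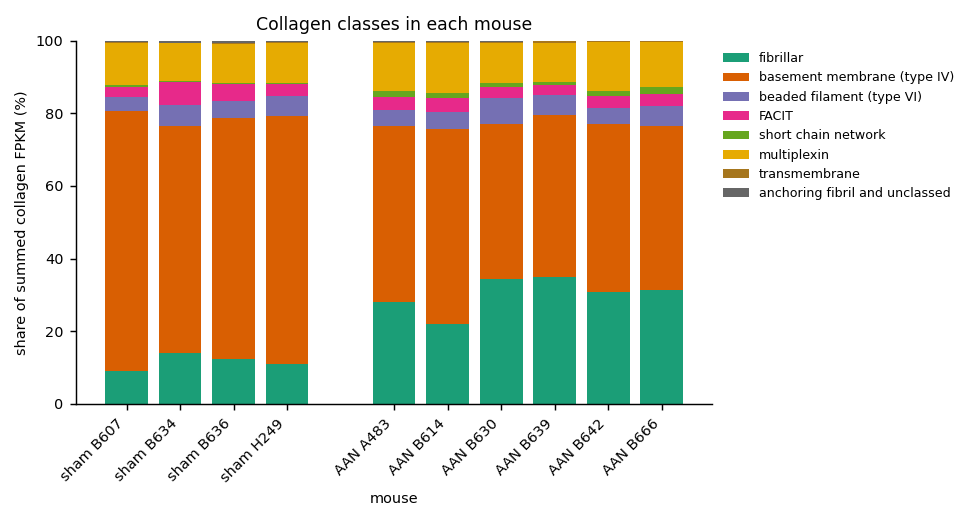
Share of the summed collagen FPKM taken by each class in each mouse, as a stacked bar from 0% to 100%, with the 4 sham mice on the left and the 6 AAN mice on the right. The fibrillar share at the base is 9.07% to 14.0% in sham and 22.1% to 34.9% in AAN mice, and the type IV share above it is 62.4% to 71.7% and 42.8% to 53.7%.

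Of 11 fibrillar genes, 9 were tested and 7 were called higher (77.8%, against 35.8% of all genes tested), with a median log2 fold change of 2.24. *Col1a1*, the main chain of type I collagen (chr11:94936224-94953042, plus strand), was at 2.80, 2.95, 2.50 and 2.74 FPKM in sham mice B607, B634, B636 and H249. In AAN mice it was lowest at 29.9, had a median of 68.5 and was highest at 86.2. All AAN mice lay far above the narrow sham range. The ratio of the group means was 23.1, and the log2 fold change of 4.41 ± 0.26 (SE, limma, adjusted p = 1.77e-07) was 3.66 above the median of all genes. *Col1a1* was the 11th collagen by level in sham and the 3rd in AAN mice.

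*Col3a1*, which forms type III collagen and shares fibrils with type I (chr1:45311538-45349706, plus strand), was at 1.67, 2.83, 2.42 and 2.71 FPKM in the sham mice. In AAN mice it ran from 23.6 through a median of 50.7 to 57.9, again without overlap, with a log2 fold change of 4.17 ± 0.26 (limma, adjusted p = 2.3e-07). *Col1a2*, the second chain of type I collagen, was at 2.44 ± 0.417 FPKM (SD, n = 4) in sham and 25.3 ± 6.07 (SD, n = 6) in AAN mice, a log2 fold change of 3.30 ± 0.22. Together *Col1a1*, *Col1a2* and *Col3a1* were 44.8% ± 3.82 of fibrillar FPKM in sham and 87.0% ± 3.49 in AAN mice.

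The type V chains, which help to start and size the fibrils, did not move to the same extent. *Col5a1* was at 0.622 ± 0.0687 FPKM in sham and 5.44 ± 1.56 in AAN mice (log2 fold change 2.89 ± 0.22), while *Col5a2* was at 3.11 ± 1.004 and 8.04 ± 0.947 (1.39 ± 0.20). *Col5a3* was at 0.166 ± 0.0644 and 1.21 ± 0.549 FPKM (2.24 ± 0.31). All 3 were called higher, *Col5a2* no longer so after rescaling by the median of ratios (0.64, limma, adjusted p = 0.00395) or under quantile normalization (0.59). The call of *Col5a3* was lost with a pseudocount of 1 (0.89). *Col11a2* was called higher from a low level (0.0504 to 0.410 FPKM as group means) and passed the filter through the AAN mice alone. Its call was lost with a pseudocount of 1 (0.41) and under quantile normalization (0.59). *Col24a1* had a log2 fold change of 0.94 ± 0.27 and was not called. It was called without sham mouse H249 (1.01), with only the mice whose tags begin with B (1.04) and with a pseudocount of 0.01 (1.90). Under quantile normalization its direction turned (-0.11).

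*Col27a1*, a fibrillar collagen known from cartilage, was the exception in direction. It was at 5.35 ± 1.48 FPKM in sham, the highest fibrillar level there, and at 3.61 ± 1.16 in AAN mice. The groups overlapped and the change of -0.57 ± 0.28 was not called (limma, adjusted p = 0.0935). It lay 1.32 below the median of all genes and was called lower after rescaling by the median of ratios (-1.32, limma, adjusted p = 0.00649). *Col2a1* and *Col11a1* were below the filter, with group means of at most 0.0596 FPKM.

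**Figure D3:**
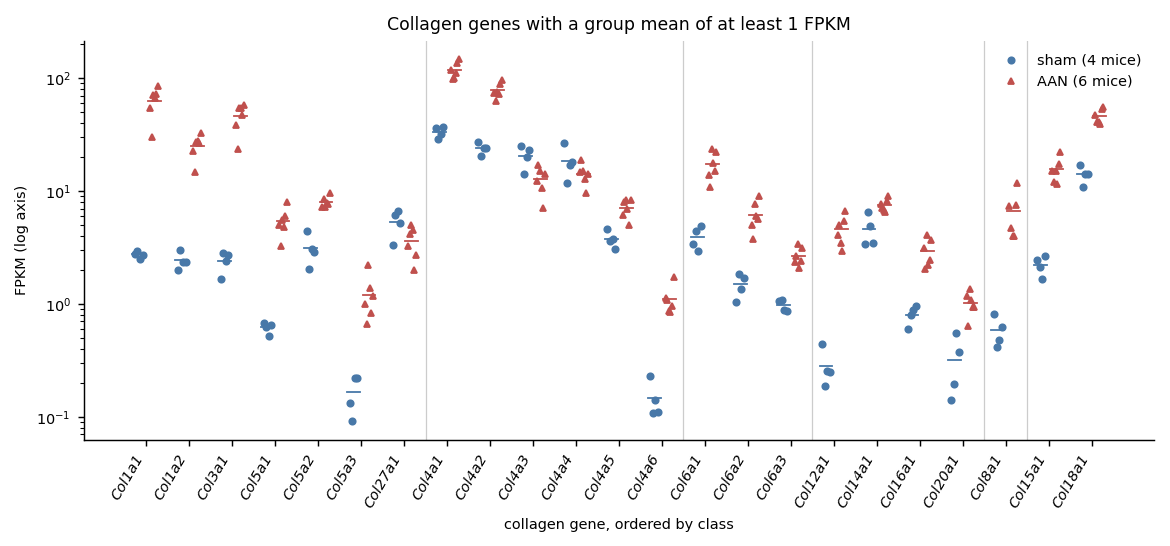
FPKM on a log axis of the 23 collagen genes whose mean reached 1 FPKM in a group, 1 point per mouse (circles for 4 sham mice, triangles for 6 AAN mice), with horizontal lines at the group means. *Col1a1*, *Col1a2* and *Col3a1* stand at 1.67 to 3.01 FPKM in sham and at 14.7 FPKM or more in every AAN mouse, while *Col4a3*, *Col4a4* and *Col27a1* overlap between the groups.

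Sequence upstream of the gene start is shown for *Col3a1* and *Col5a1*, and further on for *Col8a1*. Of the members called higher whose 250 upstream bases were matched and overlap no annotated exon, these had the largest changes. The 120 bases before each start come from the RefSeq promoter windows on GRCm38.p6 and are written 5′ to 3′ on the strand of the gene, with capitals for the motifs searched on both strands, the GC box (GGGCGG), the CCAAT box (CCAAT) and the TATA box (TATAAA). *Col3a1* lies at chr1:45311418-45311537 (plus strand) and *Col5a1* at chr2:27886305-27886424 (plus strand).
Col3a1: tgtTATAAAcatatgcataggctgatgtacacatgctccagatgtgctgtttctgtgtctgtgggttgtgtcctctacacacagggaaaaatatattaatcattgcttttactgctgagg
Col5a1: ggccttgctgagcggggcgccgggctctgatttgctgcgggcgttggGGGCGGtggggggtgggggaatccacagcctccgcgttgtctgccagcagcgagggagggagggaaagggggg
The *Col3a1* stretch had no CG dinucleotide and 40.0% G or C, with 1 TATA box match far upstream of the start, and the *Col5a1* stretch had 9 CG and 72.5%, with 1 GC box match. Windows of 250 bases before to 50 after a start were matched for 34 of the 43 members (36 windows). Only the 250 bases before the start were searched for the motifs. There a GC box stood in 61.1% of these windows and in 32.7% of the 32851 windows of all genes. A CCAAT box stood in 33.3% and 33.8%, and a TATA box in 13.9% and 12.4%. Among the 21 windows of members called higher, 13 held a GC box. Matches of these short letters are a description of the windows and not of factor binding. The members without a matched window were *Col1a1*, *Col2a1*, *Col4a3*, *Col5a2*, *Col9a3*, *Col12a1*, *Col14a1*, *Col22a1* and *Col26a1*.

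Within type IV the chains moved apart. *Col4a1* and *Col4a2*, the chains of the ubiquitous network, rose together, *Col4a6* rose from a low level, and *Col4a3*, *Col4a4* and *Col4a5* were not called. *Col4a1* (chr8:11198423-11312826, minus strand) was at 36.5, 29.0, 32.4 and 36.7 FPKM in the sham mice, and at 98.9 to 148.4 with a median of 114.5 in AAN mice. *Col4a2* (chr8:11312805-11449287, plus strand) was at 27.2, 20.5, 24.1 and 23.9 FPKM in sham, and at 62.8 to 97.1 with a median of 75.1 in AAN mice. No AAN mouse overlapped a sham mouse for either gene. The log2 fold changes were 1.81 ± 0.16 (limma, adjusted p = 2.52e-06) and 1.71 ± 0.16 (limma, adjusted p = 3.3e-06), 1.06 and 0.96 above the median of all genes. They were the 2 most abundant collagens in both groups. After rescaling by the median of ratios *Col4a1* was still called (1.04) and *Col4a2* was just under the fold limit (0.94).

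*Col4a3*, mutated in Alport syndrome like *Col4a4* and *Col4a5*, was at 20.7 ± 4.70 FPKM in sham (14.3 to 24.9) and 12.8 ± 3.57 in AAN mice (7.07 to 17.2). *Col4a4* was at 18.4 ± 6.10 (11.9 to 26.6) and 14.2 ± 3.01 (9.56 to 18.7). The groups overlapped for both, and neither change was called (-0.71 ± 0.25, adjusted p = 0.0275, and -0.34 ± 0.23, adjusted p = 0.228, both by limma). Both lay over 1 below the median of all genes and were called lower after rescaling by the median of ratios (-1.47 and -1.10). *Col4a5*, whose chain also joins *Col4a6* in Bowman's capsule, was at 3.74 ± 0.639 and 7.12 ± 1.35 FPKM without overlap, but its change of 0.90 ± 0.19 stayed under the fold limit (limma, adjusted p = 0.00134), except without sham mouse B607, where it was just called. *Col4a6* was at 0.147 ± 0.0568 and 1.11 ± 0.330 FPKM (2.27 ± 0.24), and its call was lost with a pseudocount of 1 (0.86). *Col4a3*, *Col4a4* and *Col4a5* together were 42.1% ± 3.75 of type IV FPKM in sham and 15.0% ± 4.28 in AAN mice, and the ranges (37.5% to 46.7% and 8.75% to 21.2%) did not overlap. Podocyte markers did not move the same way. Their sum overlapped between the groups (43.1 to 83.7 in sham, 47.5 to 126.4 in AAN mice). Of 5 tested, 1 was called higher and none lower by limma (2 higher and 0 lower at an unadjusted p under 0.05), against 35.8% and 3.43% of all genes.

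The type IV genes lie in head to head pairs, and the 71 bases between *Col4a4* and *Col4a3* (chr1:82586850-82586920, RefSeq on GRCm38.p6, written on the minus strand, the strand of *Col4a4*) are shown because 1 short stretch carries the start of both genes.
Col4a4-Col4a3 gap: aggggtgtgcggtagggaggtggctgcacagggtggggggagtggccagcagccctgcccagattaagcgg
None of the 3 motifs above is in these letters, and the stretch has 2 CG and 69.0% G or C. *Col4a1* and *Col4a2* overlap head to head by 22 bases, so fragments from their starts could be counted for either gene, since strand use in the counting is not stated. *Col4a6* and *Col4a5* start 1308 bases apart on chromosome X and had log2 fold changes of 2.27 and 0.90. The pair that overlaps had changes of 1.81 and 1.71, and the pair with the gap of 71 bases -0.34 for *Col4a4* and -0.71 for *Col4a3*. Another pair of neighbours, *Col3a1* and *Col5a2*, lies tail to tail 24614 bases apart on chromosome 1, with changes of 4.17 and 1.39.

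Type VI collagen is built from a *Col6a1*, a *Col6a2* and a further, longer chain, which is *Col6a3* in most tissues and can be *Col6a4*, *Col6a5* or *Col6a6*. *Col6a1* (chr10:76708792-76726168, minus strand) was at 3.42, 4.40, 2.92 and 4.90 FPKM in the sham mice and at 10.9 to 23.8 with a median of 16.4 in AAN mice. *Col6a2* (chr10:76595762-76623630, minus strand) was at 1.04, 1.85, 1.37 and 1.71 in sham and at 3.78 to 9.11 with a median of 5.80 in AAN mice. Neither gene overlapped between the groups, and both rose, by 2.09 ± 0.24 (limma, adjusted p = 1.63e-05) and 1.96 ± 0.25 (limma, adjusted p = 4.12e-05). *Col6a3* was at 0.982 ± 0.116 FPKM in sham and 2.67 ± 0.495 in AAN mice, a smaller rise of 1.34 ± 0.18 that was under the fold limit after rescaling by the median of ratios (0.63). Its call was also lost under quantile normalization (0.26) and with a pseudocount of 1 (0.88).

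*Col6a6* (chr9:105687809-105828160, minus strand) was the only collagen called lower. It passed the filter on low values through the sham mice alone, since its AAN mean was 0.0875 FPKM. It was at 0.630, 0.228, 1.25 and 0.782 FPKM in the sham mice and at 0.0178 to 0.174 with a median of 0.0915 in AAN mice. The highest AAN mouse lay below the lowest sham mouse, B634. The log2 fold change was -2.02 ± 0.39 (limma, adjusted p = 0.00081) and 2.77 below the median of all genes. It was at -2.52 after rescaling by the median of ratios. With a pseudocount of 1 FPKM, above the level of the gene in most mice, the change was -0.63 and the call was lost. Its neighbours on the same strand of chromosome 9, *Col6a5* and *Col6a4*, were below the filter, with group means of 0.0288 and 0.0157 FPKM in sham and 0.124 and 0.131 in AAN mice.

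Among the FACIT collagens 4 of 5 tested genes were called higher (80%, against 35.8% of all genes tested), with a median of 1.51. *Col12a1*, a large fibril-associated collagen (chr9:79598991-79718831, minus strand), was at 0.439, 0.189, 0.258 and 0.25 FPKM in the sham mice and at 2.98 to 6.73 with a median of 4.54 in AAN mice. Again no AAN mouse came near a sham mouse, and the log2 fold change of 3.61 ± 0.26 (limma, adjusted p = 4.89e-07) was 2.86 above the median of all genes. *Col14a1*, its close relative (chr15:55307750-55520803, plus strand), was at 3.39, 6.58, 4.91 and 3.44 FPKM in sham and at 6.60 to 9.11 with a median of 7.34 in AAN mice. Its lowest AAN mouse stood just above sham mouse B634, and its change of 0.76 ± 0.20 (limma, adjusted p = 0.00641) was at the median of all genes and not called. *Col14a1* was thus the most abundant FACIT collagen in both groups, and *Col12a1* went from the 23rd collagen by level in sham to the 17th in AAN mice. *Col16a1* (0.806 ± 0.156 to 2.94 ± 0.834 FPKM, log2 fold change 1.72 ± 0.23), *Col20a1* (0.318 ± 0.189 to 1.03 ± 0.247, 1.51 ± 0.30) and, from under 0.05 FPKM in sham, *Col9a3* (1.37 ± 0.32) were also called higher. *Col9a3* passed the filter through the AAN mice alone. The *Col20a1* call was lost after the median of ratios (0.89), under quantile normalization (0.27) and with a pseudocount of 1 (0.62). Those of *Col16a1* (0.60) and *Col9a3* (0.57) were lost under quantile normalization, and that of *Col9a3* also with a pseudocount of 1 (0.27).

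*Col19a1*, a FACIT collagen below the filter, was listed at 0 in most AAN mice. Its sham values were 0.182, 0.145, 0.232 and 0.0464 FPKM, and no AAN mouse exceeded 0.00812. In the fit without a filter on low values its change was -1.23 (limma, adjusted p = 0.000487). Like *Col6a6*, it had every AAN mouse below every sham mouse. *Col9a2* and *Col22a1* had group means of at most 0.0666 FPKM.

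Short chain network collagens rose steeply from low levels. *Col8a1*, a chain of type VIII collagen made by vessel walls and other tissues (chr16:57624258-57754737, minus strand), was at 0.816, 0.420, 0.476 and 0.629 FPKM in the sham mice and at 4.03 to 11.9 with a median of 6.07 in AAN mice. *Col8a2* was at 0.0733, 0, 0 and 0.0260 in sham and at 0.409 to 0.826 with a median of 0.628 in AAN mice. The groups were fully apart for both genes, with log2 fold changes of 3.21 ± 0.31 (limma, adjusted p = 4.59e-06) and 2.55 ± 0.25 (limma, adjusted p = 5.03e-06). *Col8a2* passed the filter through the AAN mice alone, so its separation is partly set by the filter. With a pseudocount of 1 the change of *Col8a2* was 0.66 and not called. *Col10a1*, of hypertrophic cartilage, stayed below the filter with group means of at most 0.0366 FPKM. The 120 bases before the start of *Col8a1* (chr16:57754738-57754857, RefSeq on GRCm38.p6, minus strand) are shown by the same rule as *Col3a1* and *Col5a1*, with motif matches in capitals as above.
Col8a1: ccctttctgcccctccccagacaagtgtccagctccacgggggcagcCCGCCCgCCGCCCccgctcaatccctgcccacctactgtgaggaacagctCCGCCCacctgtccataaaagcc
The capitals are the GC box on the other strand (CCGCCC). The stretch had 6 CG and 67.5% G or C, and the 250 bases before the start of *Col8a1* held 4 GC box matches in all.

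The multiplexins are basement membrane proteoglycans, and the end of the *Col18a1* chain is cleaved to endostatin. *Col18a1* (chr10:77052178-77166548, minus strand) was at 17.0, 10.9, 14.1 and 14.2 FPKM in the sham mice and at 39.5 to 55.6 with a median of 44.1 in AAN mice. *Col15a1* (chr4:47208161-47313167, plus strand) was at 2.44, 2.13, 1.68 and 2.64 in sham and at 11.6 to 22.3 with a median of 15.1 in AAN mice. Both were apart between the groups and called higher, at 1.71 ± 0.17 (limma, adjusted p = 4.78e-06) and 2.74 ± 0.21 (limma, adjusted p = 6.71e-07). Relative to the median of all genes the changes were 0.97 and 1.99, and after rescaling by the median of ratios *Col18a1* was under the fold limit (0.95).

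Of the transmembrane collagens, 1 of 3 tested was called higher (33.3%, near the 35.8% of all genes). *Col17a1*, an anchor of epithelial cells in hemidesmosomes (chr19:47646344-47692094, minus strand), was listed at 0 in all 4 sham mice and was at 0.522 to 1.59 FPKM with a median of 1.01 in AAN mice. It is the only tested collagen listed at 0 in a whole group, and the fitted change of 3.35 ± 0.30 (limma, adjusted p = 2.6e-06) depends on the pseudocount, so no fold is given. *Col17a1* passed the filter through the AAN mice alone. With a pseudocount of 1 its change was 0.97 and not called. *Col23a1* (chr11:51289920-51583918, plus strand) was at 0.134, 0.0951, 0.214 and 0.152 FPKM in sham and at 0.325 to 0.491 with a median of 0.374 in AAN mice. Its groups did not overlap, and its change of 0.98 ± 0.22 (limma, adjusted p = 0.00205) was just under the fold limit. It was over the limit without sham mouse B636 (1.10) or AAN mice A483 (1.02) or B642 (1.01), with only the mice with B tags (1.03) and with a pseudocount of 0.01 (1.36), and its direction turned under quantile normalization (-0.24). *Col13a1* overlapped between the groups (0.239 ± 0.0511 and 0.176 ± 0.0451 FPKM), and *Col25a1* was below the filter.

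*Col7a1*, the collagen of anchoring fibrils (chr9:108953586-108984875, plus strand), was at 0.0765, 0.231, 0.152 and 0.163 FPKM in the sham mice and at 0.228 to 0.708 with a median of 0.456 in AAN mice. The lowest AAN mouse lay just under sham mouse B634. Its change of 1.11 ± 0.28 (limma, adjusted p = 0.0044) was called higher, but the call was lost after rescaling by the median of ratios (0.57), and the direction turned under quantile normalization (-0.088). Without sham mouse B607 (0.95) or AAN mouse B630 (0.99), or with a pseudocount of 1 (0.33), it was also under the fold limit. *Col26a1* (chr5:136741759-136883209, minus strand) was at 0.340, 0.416, 0.621 and 0.332 FPKM in sham and at 0.294 to 0.695 with a median of 0.464 in AAN mice, with overlap and a change of 0.12 ± 0.25 that was not called and turned after the median of ratios (-0.51). *Col28a1* was below the filter (group means 0.0170 and 0.123 FPKM).

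Differences between 2 collagens within a mouse were compared for 11 pairs of chains. A factor applied to a whole library changes such a difference only through the pseudocount, which matters for genes near 0 such as *Col4a6*. The exact permutation test was two-sided and ran through all 210 ways to divide the 10 mice into 4 and 6 (smallest p 0.00476, adjusted by Benjamini-Hochberg over the 11 pairs). With fewer mice there are fewer ways to divide them, and the smallest possible p is larger. A call lost with a mouse left out therefore does not by itself show that the shift depends on that mouse. In 8 pairs the difference shifted at an adjusted p of at most 0.05. The type I chains, which assemble with more *Col1a1* than *Col1a2*, had a ratio of mean FPKM of 1.12 in sham and 2.50 in AAN mice, a log2 shift of 1.11 ± 0.12 (SE, exact permutation, adjusted p = 0.00873). *Col5a1* against *Col5a2* shifted by 1.51 ± 0.27 (exact permutation, adjusted p = 0.00873), with ratios of 0.2001 and 0.676. In contrast, no shift passed the limit for *Col3a1* against *Col1a1* (-0.24 ± 0.18, exact permutation, adjusted p = 0.18), whose ratio was 0.877 in sham and 0.726 in AAN mice. Without sham mouse B607 that pair passed (-0.41, exact permutation, adjusted p = 0.0164).

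Shifts that involve basement membrane chains ran from 0.10 to 2.60 in size. *Col1a1* against *Col4a1* shifted by 2.60 ± 0.20 and *Col4a3* against *Col4a1* by -2.52 ± 0.27 (exact permutation, adjusted p = 0.00873 for each). *Col4a3* stood at 0.614 of the *Col4a1* level in sham and at 0.108 in AAN mice. The partners *Col4a1* and *Col4a2* kept a ratio of 1.41 and 1.51 (shift 0.10 ± 0.06, exact permutation, adjusted p = 0.183), and this pair passed only without AAN mouse B630 (0.14, exact permutation, adjusted p = 0.0437). *Col4a3* against *Col4a4* shifted by -0.37 ± 0.12 (exact permutation, adjusted p = 0.0327) with overlapping groups. The call was lost without B634, B636, H249 or B614 in turn (-0.38 to -0.32, exact permutation, adjusted p = 0.0655 each) and with only the mice with B tags (-0.30). In these subsets the smallest possible p is larger. *Col4a5* against *Col4a6* shifted by -1.37 ± 0.17 (exact permutation, adjusted p = 0.00873), but by -0.095 with a pseudocount of 1, a level that *Col4a6* did not reach in sham mice.

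In type VI the *Col6a1* to *Col6a2* difference was 1.04 to 1.62 in sham and 1.28 to 1.61 in AAN mice on the log2 scale, and no shift passed the limit (0.13 ± 0.14, exact permutation, adjusted p = 0.295), though with a pseudocount of 1 it did (0.37, exact permutation, adjusted p = 0.00873). *Col6a3* against *Col6a1* shifted by -0.75 ± 0.23 (exact permutation, adjusted p = 0.0299), and this call was lost without B636 (-0.66, exact permutation, adjusted p = 0.0561), B639 (-0.67, 0.0546) or B666 (-0.71, 0.0546). *Col18a1* against *Col15a1* shifted by -1.02 ± 0.18 (exact permutation, adjusted p = 0.00873), with ratios of 6.33 and 2.97.

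**Figure D4:**
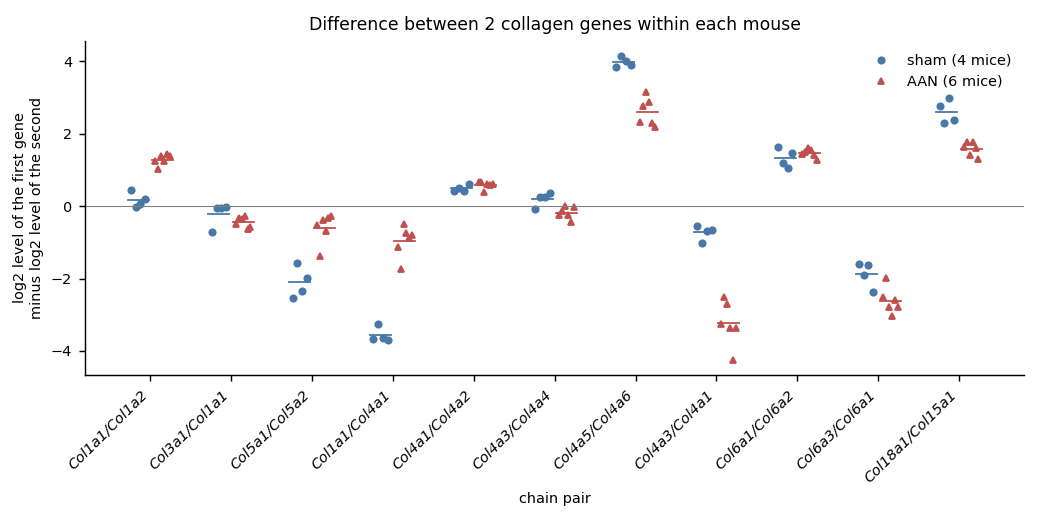
Difference in log2(FPKM + 0.1) between the first and the second gene of each of 11 pairs, 1 point per mouse (circles for 4 sham mice, triangles for 6 AAN mice), with lines at the group means. The groups are apart for *Col1a1*/*Col1a2*, *Col5a1*/*Col5a2*, *Col1a1*/*Col4a1*, *Col4a5*/*Col4a6*, *Col4a3*/*Col4a1* and *Col18a1*/*Col15a1*, and overlap for the other 5 pairs.

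The AAN mice differed among themselves in the same direction over many collagens. Of the 23 genes called higher, AAN mouse B614 was the lowest of the 6 AAN mice in 15 and AAN mouse B666 the highest in 14. The median log2 ratio to the AAN median over the 23 genes was -0.58 in B614 and 0.33 in B666, and between -0.05 and 0.04 in the other 4. The same libraries set the scale of all 23 genes, so the genes are not separate observations of a mouse. B614 also had the lowest AAN sums of the markers of fibroblasts and pericytes (53.5), macrophages (609.8) and injured tubule (1113) and the highest of proximal tubule (2055). Without B614 23 collagens were called higher, and over all mice left out in turn the number was 22 to 24.

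Genes that make, crosslink or bind collagen were counted in the same fit. Of 43 such genes 41 were tested, and 22 were called higher and 0 lower by limma (33 and 0 at an unadjusted p under 0.05). Of the 41, *Itga2*, *Itga11* and *Adamts3* passed the filter through the AAN mice alone, and *Itga2* and *Itga11* are among the 22. Over all genes tested 35.8% were called higher and 3.43% lower. In the list for chain modification and folding in the endoplasmic reticulum (ER), 6 of 19 were called higher, a share below the 35.8% of all genes, with a median of 0.69. The largest changes were in *Fkbp10* (2.43 ± 0.21), a collagen chaperone, *Colgalt1* (2.16 ± 0.21), a galactosyltransferase for hydroxylysine, and *P3h3* (1.82 ± 0.23) of the prolyl 3-hydroxylase family. *P4hb*, the abundant disulfide isomerase of prolyl 4-hydroxylase, was at 189.7 ± 43.4 FPKM in sham and 164.2 ± 26.1 in AAN mice (-0.19 ± 0.19), and *Colgalt2* was at -0.08 ± 0.30. Neither was called.

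Outside the cell, 8 of 13 genes for propeptide cleavage and crosslinking were called higher (61.5%, against 35.8% of all genes tested), with a median of 1.89. *Lox*, which starts the crosslinks, was at 0.211 ± 0.141 FPKM in sham and 5.42 ± 1.67 in AAN mice (log2 fold change 4.18 ± 0.31). *Bmp1*, which removes the C-terminal propeptides of fibrillar collagens, had a change of 3.12 ± 0.23 and *Adamts2*, which removes the N-terminal ones, of 2.90 ± 0.23. The smallest changes were those of *Tll1*, a *Bmp1* relative (-0.37 ± 0.49), and *Pcolce*, which enhances *Bmp1* (0.62 ± 0.14), neither of them called. Of 9 tested genes for collagen receptors and uptake, 8 were called higher (88.9%, against 35.8% of all genes tested), with a median of 1.66. Among the 8, *Itga2* and *Itga11* (sham means 0.0273 and 0.0340 FPKM) passed the filter through the AAN mice alone, so this share is partly set by the filter. *Lair1*, a receptor of leukocytes, changed by 3.04 ± 0.29, *Ddr2*, a receptor tyrosine kinase of mesenchymal cells, by 2.86 ± 0.19, and *Mrc2*, which takes up collagen, by 2.22 ± 0.24. The integrin chain gene *Itga10* was at 0.55 ± 0.24 and not called, and *Ddr1* changed by 1.04 ± 0.22. After rescaling by the median of ratios 15 of the 41 were called higher and 0 lower (4 in the ER, 7 in the crosslinking and 4 in the receptor list), against 19% and 10.5% of all genes, and the median of the ER list turned to -0.06.

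**Figure D5:**
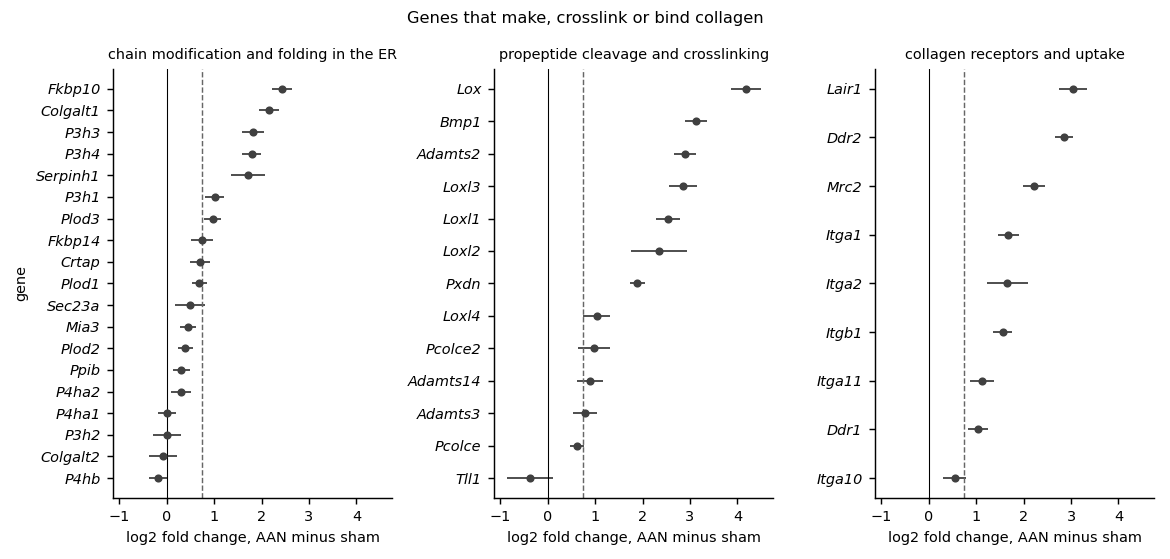
Log2 fold change (AAN minus sham, on the log2(FPKM + 0.1) scale) with standard error of the 41 tested genes that make, crosslink or bind collagen, in 3 lists. The dashed line is the median of all genes tested (0.748). Of 19 genes for chain modification 6 were called higher, of 13 for cleavage and crosslinking 8, and of 9 receptors and uptake genes 8, against 35.8% of all genes tested. The receptor genes *Itga2* and *Itga11* passed the filter through the AAN mice alone.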

How the data were processed

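RNA of kidney cortex from 4 sham and 6 AAN mice was sequenced as paired-end TruSeq libraries. The authors filtered the reads, mapped them to GRCm38.p4 (mm10 in the submitters' processing notes) with HISAT2 and deposited StringTie FPKM values per Ensembl gene for each mouse, with no normalization between mice named and no counts used here. The annotation release, strand use and treatment of shared fragments are not given in the sources used here. Of the 43 collagen genes, 13 overlap another gene of the files and are uncertain to that extent. They include *Col1a2*, *Col4a1*, *Col4a2*, *Col4a3*, *Col5a1*, *Col5a2*, *Col15a1* and *Col18a1*, so the chain pairs with these genes carry the same uncertainty. The authors' own test was edgeR, which needs counts, so limma was used here on the deposited FPKM.

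Symbols, coordinates and strands came from GENCODE mouse release 21 (GRCm38), which matched 21650 of the 21792 genes. Depth was recovered from values under 0.3 FPKM, of which 95.7% to 97.4% per mouse were whole fragments within 0.05. A listed 0 limits precision for low genes, by counting error only. limma 3.58.1 (R 4.3.3, lmFit, eBayes with trend and robust, two-sided) was fitted to log2(FPKM + 0.1) for the 17129 genes averaging 0.1 FPKM or more over the 10 mice, without covariates, with adjustment over all genes. Pairs were tested by exact permutation with scipy 1.17.1, numpy 2.4.6 and pandas 2.3.3 under Python 3.11.15, and figures were drawn with matplotlib 3.10.9. The fit was tested on simulated data.

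All collagen genes are accounted for. For the 2 most abundant members of each class in AAN mice and for members called lower, the value of each sham mouse and the lowest, median and highest AAN values are given, with group values for the other genes that average 1 FPKM or more in a group, and, of each list of genes that make, crosslink or bind collagen, the 3 largest and the 2 smallest changes. *Col19a1* and a few other genes under 1 FPKM are named beyond this rule, after their values were seen. The members, classes and lists were chosen with earlier results of these data known. The alternatives were the median of ratios, quantile normalization, pseudocounts of 1 or 0.01, a filter at a mean of 1 FPKM or none, limma without trend and robust, dropping the fold limit, leaving out single mice, and keeping only the 3 sham and 5 AAN mice whose tags begin with B.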

Additional observations from a re-analysis of the deposited data

Results flagged for a closer look

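Among 100 groups of values examined (each of the 33 tested collagen genes and each class sum and share, in sham and in AAN mice), 4 held a mouse set apart from the others of its group, where chance gives about 1 in 20, or 5.0. *Col24a1* was at 0.00655 FPKM in sham mouse B634 and at 0.0630 to 0.0692 in the other 3 sham mice, and at 0.348 in AAN mouse B630 and 0.145 to 0.217 in the other 5 AAN mice. *Col4a6* was at 1.74 FPKM in AAN mouse B666 and at 0.853 to 1.14 in the other 5 AAN mice. The summed FPKM of *Col7a1*, *Col26a1* and *Col28a1* was 1.505 in AAN mouse B630 and 0.851 to 1.054 in the other 5.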

How the results depend on the processing

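Of the 24 collagens called with the values as deposited, 10 were called under every one of the 18 alternatives of the fit that tested them. The number called higher (23) was 14 of 33 with a pseudocount of 1, against 17% of all genes in that setting. With a mean of at least 1 FPKM, which tests fewer genes, it was 15 of 20, against 32.8% of all genes. The number called lower (1) was 0 under both of these by limma (2 and 1 at an unadjusted p under 0.05), and 2 with no filter or with no fold limit (2.68% and 6% of all genes). It was 4 of 33 after the median of ratios and 5 of 33 after quantile normalization, against 10.5% and 11.6% of all genes. When single mice were left out, 22 to 24 collagens were called higher and 1 lower. The genes that make, crosslink or bind collagen had 12 called higher and 2 lower after quantile normalization (14.9% and 11.6% of all genes), against 22 and 0 in the values as deposited (35.8% and 3.43% of all genes). Directions turned in 4 genes, *Col24a1* (-0.11), *Col23a1* (-0.24), *Col7a1* (-0.088) and *Col26a1* (-1.12) under quantile normalization, and *Col26a1* (-0.51) also after the median of ratios. The cause was not tested.

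Between 6 and 9 of the 11 pairs shifted with a mouse left out, and 7 with the B tags alone, where the smallest possible p is larger. No paired analysis was possible because the groups share no mouse tags. Genes under the filter rest on few fragments, and a small group size limits the precision of every standard error.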
